A study of Mus musculus with 4 samples.

Results

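The 36 genes described here encode the enzymes of glycolysis and of glycogen synthesis and breakdown, together with regulators of glycogen. They were taken by symbol from a table of 55487 genes measured in the mouse mammary fat pad (MFP), and they were sorted by the tissue in which each isoform is known to dominate. The muscle class held 8 genes (Pfkm, Pgam2, Eno3, Fbp2, Pygm, Phka1, Phkg1 and Ppp1r3a). The broad class held 18 forms taken as widely expressed or as the only form in most tissues (Hk1, Hk2, Aldoa, Pgam1, Eno1, Pkm, Ldha, Ldhb, Gys1, Ppp1r3c, Gpi1, Tpi1, Gapdh, Pgk1, Gbe1, Gaa, Ugp2 and Gyg). Some of these, such as Hk2, Aldoa, Ldha and Gys1, are also used by muscle, so the broad class is not a class without muscle forms. The liver class held 5 genes (Pfkl, Pklr, Fbp1, Pygl and Gys2), and 5 more were isoforms of blood cells, platelets or brain (Hk3, Pfkp, Aldoc, Eno2 and Pygb). All 36 symbols were found, on 37 rows, since Aldoa stood on a main row and on a second row with few counts.

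The study asked how aged fat tissue differs from young, and the MFP served as adipocyte-rich mouse tissue. Whole MFPs of female C57BL/6J mice were sequenced at 14 months (aged, 2 samples) and at 8 weeks (young, 2 samples), with no transgene, treatment or other agent named for either age. No adipocytes were isolated, so the RNA came from all cells of the pad, and in such bulk RNA a change in the number of cells of a type and a change in RNA per cell cannot be told apart. The labels call the samples biological replicates without saying that each came from its own animal, so the p-values measure the spread between these samples, which may be technical.

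The libraries held 83936413 and 98402403 counts in aged replicates 1 and 2 and 77661766 and 68803304 counts in young replicates 1 and 2, and 3 counts corresponded to between 0.0337 and 0.0407 CPM (read counts divided by the scaled size of the library), which covers counting error only. The labelled tissue was checked with 8 adipocyte markers, all detected, whose summed level was 12710 and 10420 CPM in aged and 8381 and 8743 CPM in young MFP. The 12 skeletal muscle markers summed to 41380 and 65550 CPM in aged and 10540 and 14710 CPM in young MFP. None of the 12 was at 0 in any library, the ages separated with aged above young for 11, and their median log2 fold change was 2.15. Aged replicate 1 stood apart in the slow and oxidative fibre genes, with 577.9 CPM of Myh2 where the other libraries had at most 2.156 CPM. Young replicate 1 stood apart in Ptprc, a leukocyte gene, with 803.3 CPM against 32.74 to 100.4 CPM elsewhere.

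Glycolysis splits glucose into pyruvate, and glycogen is the store from which muscle and liver draw glucose units. Several steps are catalysed by isoforms that are encoded by separate genes and used by different tissues. In skeletal muscle, phosphofructokinase M (Pfkm), phosphoglycerate mutase M (Pgam2), beta-enolase (Eno3) and muscle glycogen phosphorylase (Pygm) dominate, whereas liver relies on Pfkl, Pygl, Gys2, Fbp1 and Pklr. Adipocytes take up glucose under insulin and use glycolysis to supply glycerol phosphate for triglyceride, mostly through the widely expressed isoforms.

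Because the muscle isoforms were all higher in both aged libraries, the 250 bases before the RefSeq start (GRCm38) of 4 of them are shown, as the regulatory sequence nearest to each gene. Capitals mark matches on either strand to CAGCTG (the E-box core bound by myogenic factors), to the MEF2 site and to ACGTG (the core of the hypoxia response element). Pygm is read at chr19:6384158-6384407 on the plus strand, Pgam2 at chr11:5803797-5804046 on the minus strand, Eno3 at chr11:70656926-70657175 on the plus strand and Fbp2 at chr13:62858401-62858650 on the minus strand.
Pygm: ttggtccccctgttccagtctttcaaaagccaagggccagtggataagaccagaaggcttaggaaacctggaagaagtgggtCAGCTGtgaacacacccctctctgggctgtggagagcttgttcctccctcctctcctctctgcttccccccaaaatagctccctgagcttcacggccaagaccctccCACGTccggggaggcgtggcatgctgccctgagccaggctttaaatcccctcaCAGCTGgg
Pgam2: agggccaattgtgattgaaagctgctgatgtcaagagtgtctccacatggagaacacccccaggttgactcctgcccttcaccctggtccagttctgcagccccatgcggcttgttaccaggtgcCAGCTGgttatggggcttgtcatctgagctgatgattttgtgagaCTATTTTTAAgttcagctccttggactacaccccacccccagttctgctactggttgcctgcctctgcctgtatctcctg
Eno3: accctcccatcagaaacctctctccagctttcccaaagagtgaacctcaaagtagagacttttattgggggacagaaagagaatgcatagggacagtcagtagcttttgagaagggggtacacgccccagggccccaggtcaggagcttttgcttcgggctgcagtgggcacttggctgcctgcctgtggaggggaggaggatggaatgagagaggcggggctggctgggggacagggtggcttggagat
Fbp2: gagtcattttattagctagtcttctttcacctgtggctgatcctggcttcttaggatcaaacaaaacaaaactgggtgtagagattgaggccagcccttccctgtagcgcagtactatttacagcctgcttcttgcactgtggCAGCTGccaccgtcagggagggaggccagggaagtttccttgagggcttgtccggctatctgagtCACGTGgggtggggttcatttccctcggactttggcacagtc
The Pygm window held CAGCTG 168 and 8 bases before the start and ACGTG 61 bases before it. The Pgam2 window held CAGCTG 125 bases and a MEF2 site 80 bases before the start. The Fbp2 window held CAGCTG 107 bases before the start, and a CACGTG that contains ACGTG on both strands. The Eno3 window held none of the 3 motifs, which says only that these letters are not in it. The GENCODE M21 starts of all 4 genes differ from the RefSeq starts used here. Those of Pygm, at 6384399, and of Fbp2, at 62858422, lie inside the windows shown. The Pygm CAGCTG nearest to the start is thus within the GENCODE gene. Those of Pgam2 and Eno3 lie after the windows.

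Windows were found for 35 of the 36 genes, 48 windows in all because some genes have several starts. CAGCTG was in 5 of the 11 windows of muscle isoforms (45.5%), in 5 of the 26 windows of broad forms (19.2%) and in 13.0% of all 32851 mouse promoter windows of that length. Counted by gene, CAGCTG was found for 5 of the 8 muscle genes, 5 of the 18 broad genes and 3979 of all 27025 genes. It was in none of the 5 liver and 6 other windows. The MEF2 site was in 2 of the 11 muscle windows, those of Pgam2 and Ppp1r3a, and in 2.92% of all windows. ACGTG was in 36.4% of the muscle windows, 38.5% of the broad windows and 16.6% of all windows. By gene these were 3 of 8 muscle and 9 of 18 broad genes, since Pfkm has several starts, and the classes were not compared by a test. The general E-box CANNTG, of which CAGCTG and CACGTG are forms, was in 90.9% of the muscle and 66.2% of all windows. These matches describe sequence and not binding.

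Aged and young MFP were compared by edgeR's quasi-likelihood test over the 22485 genes with enough counts, with Benjamini-Hochberg adjustment over all of them. At an adjusted p under 0.05 it called 0 of these genes (0.0%), and so none of the 34 members tested. The lowest adjusted p was 0.36. At an unadjusted p under 0.05, 7.24% of all genes were higher in aged MFP and 3.31% lower, against 13 of the 34 members higher and 0 lower. By DESeq2, the tool the study used, 3.24% of all genes were called higher and 0.71% lower, against 12 members higher and 0 lower. Aged and young values separated with aged above young for 18 of the 34 members and for 23.3% of all genes, and with aged below young for 0 members and for 22.8% of all genes.

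The members divided by isoform class. All 8 muscle isoforms were higher in both aged samples, with a median log2 fold change (aged over young) of 1.88 and a range from 1.25 to 2.71. The 18 broad forms had a median of 0.49, from -0.11 to 1.63, and 10 of them had both aged samples above both young. The division depends on the class lists, which were chosen with earlier results known. Among the broad forms also used by muscle, Hk2 was at 0.69, Aldoa at 0.90, Ldha at 0.31 and Gys1 at 0.37, and Ldha overlapped between the ages. The 3 liver isoforms tested had a median of -0.16 and the 5 blood cell, platelet and brain isoforms one of 0.03, and all 8 overlapped between the ages. Other scalings of the libraries put both aged samples below both young for Eno2 (upper quartile and total counts) and for Hk3 and the broad Pgam1 (total counts only). The median over all genes tested was -0.04. By DESeq2, 8 of 8 muscle isoforms and 4 of 18 broad forms were called higher, and 0 of the liver or other isoforms.

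**Figure D1:**
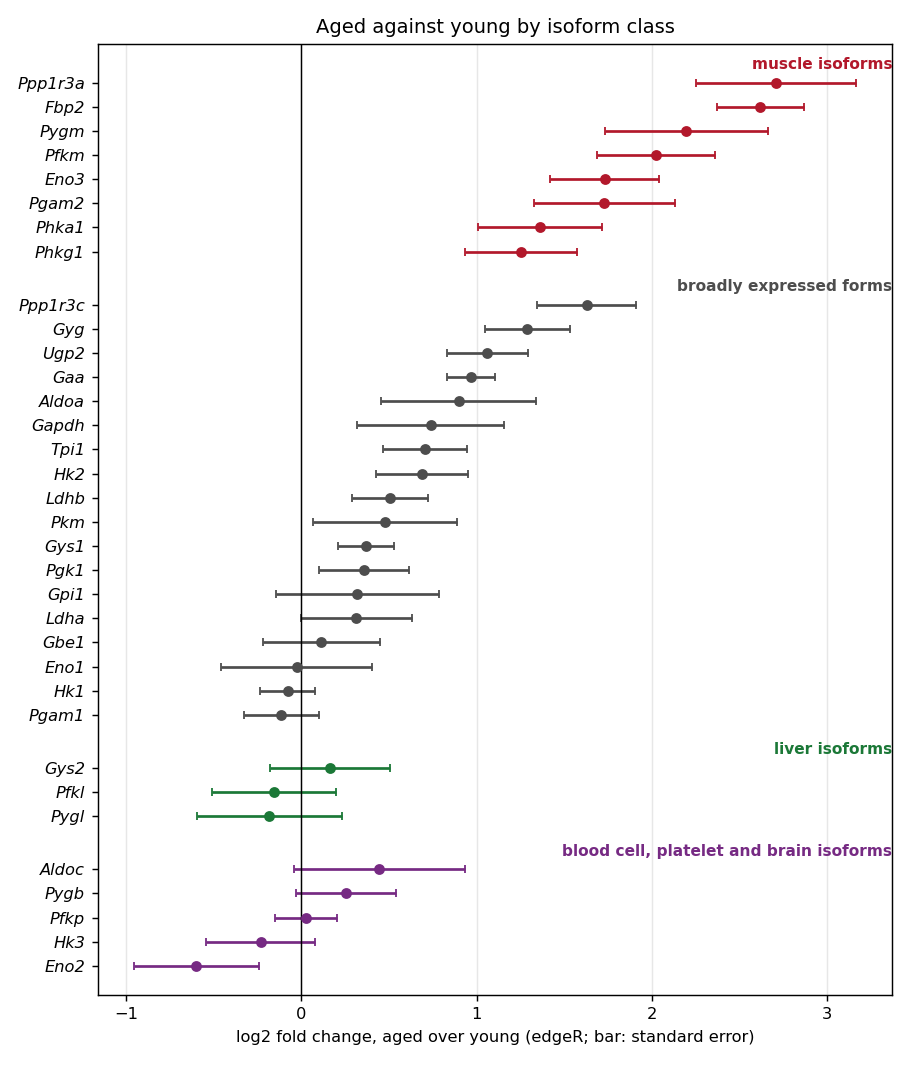
Log2 fold change of each of the 34 members tested, aged over young MFP (horizontal axis, edgeR), with bars for the standard error, grouped by isoform class. The 8 muscle isoforms lie between 1.25 and 2.71, while the liver isoforms and those of blood cells, platelets and brain lie on both sides of 0.

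The muscle isoforms of glycolysis are given first. Pfkm (ENSMUSG00000033065, chromosome 15, 98092589 to 98132451, plus strand), which catalyses the committed step of glycolysis in muscle, was at 348.5 and 596.7 CPM in aged replicates 1 and 2 and at 102.8 and 129.6 CPM in young replicates 1 and 2. The difference was 4.07-fold, or 2.02 ± 0.34 on the log2 scale (SE; adjusted p = 0.36 from edgeR and 1.82e-05 from DESeq2). Both aged values exceeded both young values, although they differed from each other 1.71-fold. Pgam2 (ENSMUSG00000020475, chromosome 11, 5801640 to 5803733, minus strand), which moves the phosphate of phosphoglycerate, was at 113.4 and 198.1 CPM in aged and 35.4 and 58.62 CPM in young MFP. This gave a log2 fold change of 1.73 ± 0.40 (SE; adjusted p = 0.404 from edgeR and 0.0057 from DESeq2). The ages did not overlap, and replicate 2 was the higher sample at each age. That order held for 7 of the 8 muscle isoforms in aged and for all 8 in young MFP. Eno3 (ENSMUSG00000060600, chromosome 11, 70657202 to 70662513, plus strand), the enolase of muscle, was at 420.8 and 699.9 CPM in aged and 156.7 and 181 CPM in young MFP. It had the same log2 fold change as Pgam2, 1.73 ± 0.31 (SE; adjusted p = 0.361 from edgeR and 1.45e-04 from DESeq2).

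Fbp2, the muscle fructose bisphosphatase (ENSMUSG00000021456, chromosome 13, 62836877 to 62858422, minus strand), acts against phosphofructokinase. It was the least abundant muscle isoform per kilobase of exon, at 8.695 and 7.962 CPM in aged and 1.342 and 1.369 CPM in young MFP. The replicates of each age lay close together and far from the other age. It was 6.14-fold higher in aged MFP (log2 fold change 2.62, SE 0.25, adjusted p = 0.36 from edgeR and 4.65e-18 from DESeq2). Fbp2 was the only muscle isoform that was lower in aged replicate 2 than in aged replicate 1, with a ratio of 0.916 where the other 7 had ratios from 1.57 to 1.99.

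Glycogen breakdown in muscle runs through Pygm, which releases glucose phosphate, and through phosphorylase kinase, which activates it. Pygm (ENSMUSG00000032648, chromosome 19, 6384399 to 6398459, plus strand) was at 958.7 and 1898 CPM in aged and 245.3 and 378.1 CPM in young MFP. It was 4.58-fold higher in aged MFP (log2 fold change 2.20, SE 0.46, adjusted p = 0.385 from edgeR and 2.32e-04 from DESeq2). Among the muscle isoforms Pygm had the widest gap between the aged samples in CPM, and still the lower of them was above both young samples. Per kilobase of exon it ranked second among the 36 genes in aged MFP, at 443.8 CPM per kilobase after Aldoa, and stood in place 7 in young MFP at 96.86. Phka1 (ENSMUSG00000034055, chromosome X, 102513975 to 102644246, minus strand), the muscle alpha subunit of phosphorylase kinase, was at 144.1 and 239.9 CPM in aged and 59.55 and 89.68 CPM in young MFP. Phkg1 (ENSMUSG00000025537, chromosome 5, 129863421 to 129898549, minus strand), its catalytic gamma subunit, was at 58.99 and 92.44 CPM in aged and 26.03 and 37.59 CPM in young MFP. These 2 kinase subunits had the smallest log2 fold changes of the class, 1.36 and 1.25, with standard errors of 0.35 and 0.32 (adjusted p = 0.416 and 0.41 from edgeR, and 0.0284 and 0.0336 from DESeq2). Phkg1 shares 630 exonic bases with Sumf2 on the other strand.

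Ppp1r3a (ENSMUSG00000042717, chromosome 6, 14713977 to 14755274, minus strand), which tethers protein phosphatase 1 to glycogen in muscle, had the largest log2 fold change of the 34 members tested. It was at 98.36 and 195.9 CPM in aged and 17.39 and 27.64 CPM in young MFP. It was 6.54-fold higher in aged MFP (log2 fold change 2.71, SE 0.46, adjusted p = 0.36 from edgeR and 2.95e-06 from DESeq2). Here too the lower aged sample was well above the higher young one.

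**Figure D2:**
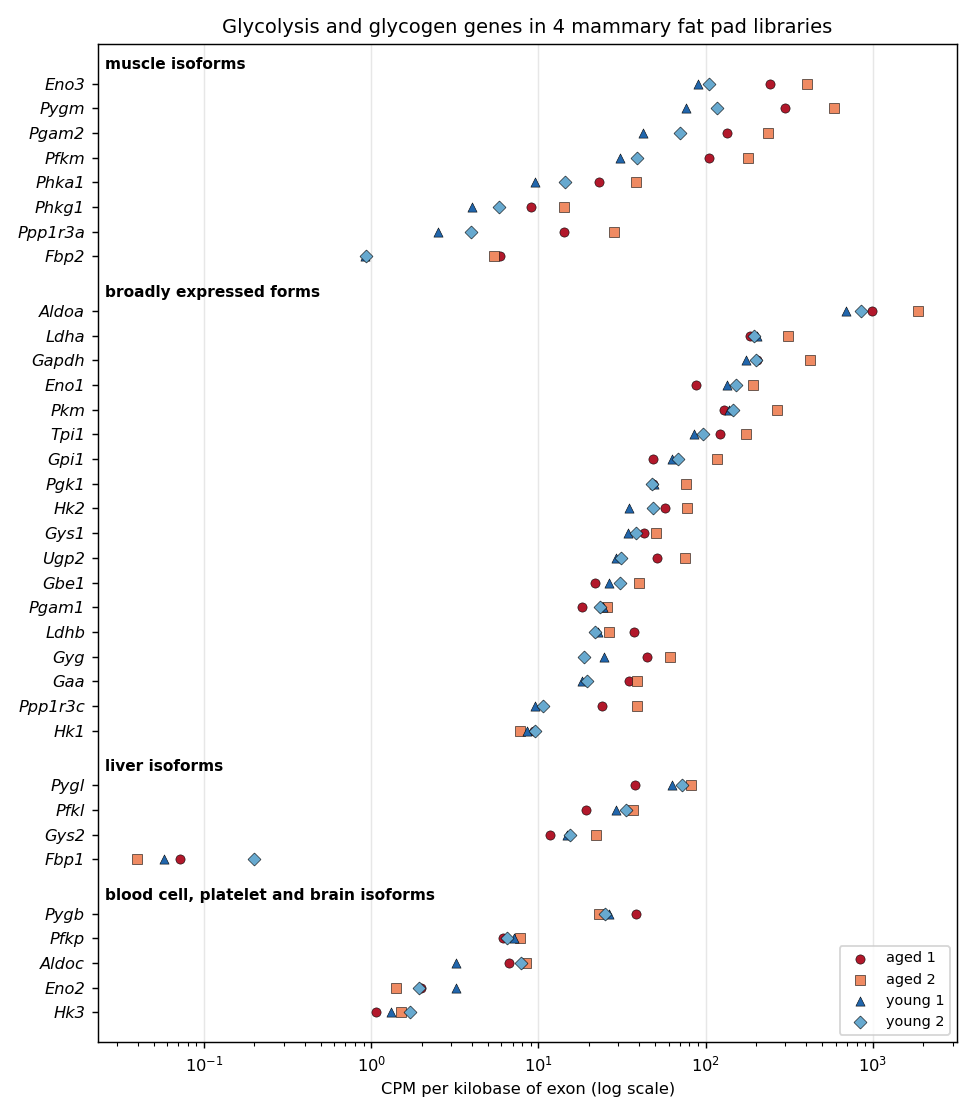
Level of each member in the 4 libraries as CPM per kilobase of exon (horizontal axis, log scale), grouped by isoform class, with circles and squares for aged replicates 1 and 2 and triangles and diamonds for young replicates 1 and 2. Both aged points lie to the right of both young points in all 8 muscle isoforms, and Pklr, at 0 counts in every library, is not drawn.

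These calls depended on single libraries. DESeq2 called all 8 muscle isoforms higher with 4 libraries, 6 without aged replicate 1, 2 without aged replicate 2 (Fbp2 and Ppp1r3a), 6 without young replicate 1 and 8 without young replicate 2. Over all members the calls numbered 7, 2, 9 and 14 in the same order, while 1.5%, 0.643%, 3.73% and 15.5% of all genes tested were called in either direction. Each muscle isoform kept its sign without any 1 library, and their median log2 fold change stayed between 1.45 and 2.21.

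The composition of each enzyme family was followed as the share of the muscle isoform in reads per kilobase of exon, which needs no scaling between libraries. Pfkm made up 80.4% and 80.0% of phosphofructokinase in aged MFP and 45.9% and 49.3% in young MFP, a difference of 32.6 points. Eno3 made up 72.9% and 67.5% of enolase in aged and 39.6% and 40.5% in young MFP, a difference of 30.2 points. The leading enolase per kilobase was Eno3 in the aged and Eno1 in the young libraries, whereas in raw counts Eno1, whose exons sum to 5379 bases against 1739 for Eno3, led in all 4 libraries, with Eno3 at 46.6% and 40.2% in aged and 17.5% and 18.1% in young MFP. Pygm made up 79.6% and 85.0% of glycogen phosphorylase in aged and 46.1% and 54.7% in young MFP, a difference of 31.9 points. Pgam2 made up 88.1% and 90.2% of phosphoglycerate mutase in aged and 63.3% and 75.04% in young MFP, a difference of 19.96 points. In these families the aged and young shares did not overlap, and the difference was larger than the gap between replicates. The levels depend on the exon lengths. In raw counts Pfkm was at 62.3% and 63.0% in aged and 26.1% and 29.5% in young MFP, where Pfkl led. Pygm was then at 68.3% and 73.9% in aged and 30.45% and 37.9% in young MFP, where Pygl led. For Pgam2 the raw-count shares were 75.8% and 79.5% in aged and 42.2% and 56.0% in young MFP.

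Fbp2 made up 98.8% and 99.3% of fructose bisphosphatase in aged and 94.1% and 82.4% in young MFP, where Fbp1 had at most 25 counts. Hk2, the insulin-responsive hexokinase of muscle and fat, made up 84.6% and 89.3% of hexokinase in aged and 78.0% and 81.2% in young MFP, a difference of 7.34 points, while the housekeeping form Hk1 made up the smaller part in every library. The shares of Aldoa (99.1% to 99.6% of aldolase) and of Ldha (83.2% to 92.2% of lactate dehydrogenase) overlapped between the ages. Pkm made up all of pyruvate kinase, because Pklr had 0 counts in each library. For each family without overlap the two-sided exact permutation test gave p = 0.333, the smallest that 2 samples against 2 allow, so no share could pass 0.05. In raw counts the 95% Wilson interval of a share was at most 13.8 points wide for fructose bisphosphatase and at most 2.33 points for the other families.

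**Figure D3:**
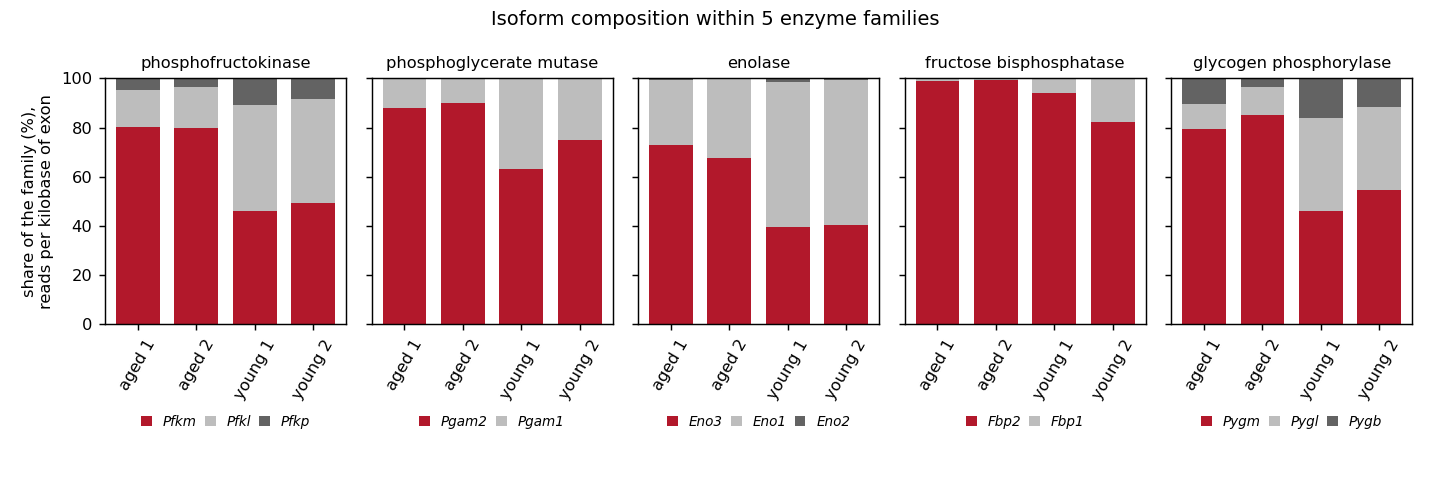
Share of each isoform within 5 enzyme families (vertical axis, percent of reads per kilobase of exon) in each of the 4 libraries, with the muscle isoform in red. The red part is larger in both aged libraries than in both young libraries in all 5 families, for example 80.4% and 80.0% against 45.9% and 49.3% for Pfkm.

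Where the muscle isoforms were separated by age, their family partners overlapped. Pfkl, the liver phosphofructokinase, was at 128.8 and 245.8 CPM in aged and 194.5 and 222.7 CPM in young MFP, so that the aged samples lay on either side of the young ones. Pfkp, the platelet form, was at 82 and 104.6 CPM in aged and 96.28 and 87.06 CPM in young MFP. It shares 748 exonic bases with Pitrm1 on the other strand. Pgam1, the broad mutase, was at 36.28 and 51.03 CPM in aged and 48.52 and 46 CPM in young MFP. Eno1, the broad enolase, was at 473.4 and 1035 CPM in aged and 723.1 and 812.4 CPM in young MFP. Eno2, the neuronal enolase, was at 9.343 and 6.636 CPM in aged and 15.06 and 9.12 CPM in young MFP, and had the lowest log2 fold change of the members at -0.60. Pygl, the liver phosphorylase, was at 261.4 and 560.1 CPM in aged and 433.1 and 499.3 CPM in young MFP. Pygb, the brain phosphorylase, was at 184.5 and 110.3 CPM in aged and 127.3 and 119.7 CPM in young MFP. For each of these genes the spread within aged MFP was larger than the distance between the ages, or the samples interleaved, and their adjusted p-values from edgeR ran from 0.555 for Eno2 to 0.982 for Eno1.

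Pklr and Fbp1 were at the limit of detection. Pklr had 0 counts in all 4 libraries, which allows up to 3 counts per library. Fbp1 had 10 and 6 counts in aged and 8 and 25 counts in young MFP and was too low to be tested by edgeR. Gys2, the liver glycogen synthase, was at 31.27 and 58.93 CPM in aged and 39.23 and 41.22 CPM in young MFP, so that the ages overlapped. The 8 hepatocyte markers summed to between 226.0 and 476.1 CPM, and Ttr, Fga and Cyp3a11 were at 0 in every library. Averaged over the libraries, 91.4% of the summed level came from Cyp2e1. Of the other isoforms, Aldoc, the brain aldolase, was at 21.89 and 27.32 CPM in aged and 10.41 and 25.75 CPM in young MFP, and Hk3, the hexokinase of leukocytes, at 3.938 and 5.525 CPM in aged and 4.843 and 6.274 CPM in young MFP. Both overlapped between the ages. In young replicate 1, the library with high Ptprc, Hk3 lay within the range of the other libraries.

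The 4 broad forms that DESeq2 called higher, of 18, all act in glycogen metabolism, which was seen after their values were known and has no test. Ppp1r3c (ENSMUSG00000067279, chromosome 19, 36731731 to 36736653, minus strand), the widely expressed glycogen-targeting subunit of protein phosphatase 1, was at 64.96 and 105.2 CPM in aged and 25.95 and 29.17 CPM in young MFP. The log2 fold change of Ppp1r3c was 1.63 ± 0.28 (SE; adjusted p = 0.36 from edgeR and 2.96e-04 from DESeq2). Gyg (ENSMUSG00000019528, chromosome 3, 20122084 to 20155317, minus strand), glycogenin, which primes the glycogen chain, was at 105.1 and 143.7 CPM in aged and 57.87 and 43.99 CPM in young MFP. That of Gyg was 1.29 ± 0.24 (SE; adjusted p = 0.37 from edgeR and 0.00244 from DESeq2). No other broad form had a log2 fold change as large as these.

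Ugp2 (ENSMUSG00000001891, chromosome 11, 21321138 to 21371201, minus strand), which makes the UDP-glucose used for glycogen, was at 156.9 and 230.5 CPM in aged and 89.85 and 95.79 CPM in young MFP. For Ugp2 the log2 fold change was 1.06 ± 0.23 (SE; adjusted p = 0.395 from edgeR and 0.0182 from DESeq2). Gaa (ENSMUSG00000025579, chromosome 11, 119267887 to 119285454, plus strand), the lysosomal glucosidase that degrades glycogen, was at 165.7 and 186 CPM in aged and 86.93 and 92.97 CPM in young MFP. For Gaa it was 0.97 ± 0.14 (SE; adjusted p = 0.36 from edgeR and 2.68e-04 from DESeq2), the smallest standard error of the members. Both genes were separated by age, Gaa with aged samples close together and Ugp2 with aged samples that differed 1.47-fold. Gys1 and Gbe1 differed less between the ages. Gys1, the glycogen synthase of muscle and most tissues, was at 206.2 and 243 CPM in aged and 164.8 and 183.2 CPM in young MFP (log2 fold change 0.37), and shares 310 exonic bases with Ruvbl2 on the other strand. Gbe1, the branching enzyme, was at 116.8 and 213.7 CPM in aged and 140.8 and 164.5 CPM in young MFP and overlapped between the ages.

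Of the broad enzymes of glycolysis, 5 had both aged values above both young values. Aldoa, the aldolase of muscle and most other tissues, ranked first per kilobase at each age and was at 2898 and 5454 CPM in aged and 1999 and 2488 CPM in young MFP (log2 fold change 0.90, standard error 0.44). Gapdh was at 843.5 and 1742 CPM in aged and 721 and 829.6 CPM in young MFP, so that aged replicate 1 was only just above the higher young sample. Its log2 fold change, 0.74, had a standard error of 0.42 (adjusted p = 0.547 from edgeR). Tpi1, triose phosphate isomerase, was at 335.5 and 481.6 CPM in aged and 234.4 and 266.1 CPM in young MFP, with a log2 fold change of 0.71, and Hk2 was at 341.2 and 460.7 CPM in aged and 209 and 288.9 CPM in young MFP, with 0.69. Tpi1 was the fifth broad form at an unadjusted p under 0.05, and DESeq2 did not call it (adjusted p = 0.225). Ldhb, the lactate dehydrogenase of heart, was at 58.22 and 41.2 CPM in aged and 35.73 and 34.35 CPM in young MFP and, unlike most broad forms, was higher in aged replicate 1.

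The other broad glycolytic enzymes overlapped between the ages. Pkm, pyruvate kinase, was at 642.3 and 1333 CPM in aged and 688.9 and 731.2 CPM in young MFP. The counts are per gene, so its M1 and M2 splice forms, which differ between muscle and other tissues, were not separated. Ldha, the lactate dehydrogenase of muscle and of glycolytic tissue, was at 608 and 1025 CPM in aged and 673.8 and 641.2 CPM in young MFP. Gpi1, glucose phosphate isomerase, was at 311.6 and 749.9 CPM in aged and 407.1 and 443.3 CPM in young MFP, the widest ratio between aged libraries among the members tested, 2.41. Pgk1, phosphoglycerate kinase, was at 108.1 and 170.5 CPM in aged and 110.9 and 106.5 CPM in young MFP, and Hk1 at 79.7 and 66.34 CPM in aged and 73.03 and 81.17 CPM in young MFP. In Pkm, Ldha, Gpi1 and Pgk1 aged replicate 2 alone lay above both young samples. Near-identical copies elsewhere in the genome held counts equal to 1.79% of those of Gapdh, over 124 loci, and to under 1% for each other member with copies.

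Levels between genes are compared per kilobase of exon. The 36 genes took 1.02% and 1.7% of all counts in aged and 0.85% and 0.997% in young MFP. Within their summed level per kilobase, the muscle class made up 26.7% and 26.9% in aged and 11.8% and 14.0% in young MFP, and the broad class 69.3% and 69.8% in aged and 81.4% and 79.5% in young MFP. The liver class made up 2.22% and 2.53% in aged and 4.92% and 4.8% in young MFP. The other isoforms made up 1.74% and 0.758% in aged and 1.9% and 1.7% in young MFP, so that the aged replicates had nearly the same shares of muscle and broad forms but not of this class.

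The muscle markers moved with the muscle isoforms, so each member was also expressed per 1000 counts of the 12 markers of the same library. Ttn alone made up 46.5% of the summed marker level, averaged over the libraries, so the scale leans on few genes. Pfkm then had 8.421 and 9.104 counts in aged and 9.753 and 8.814 counts in young MFP, and its highest library exceeded its lowest 1.16-fold. Pygm had 23.17 and 28.95 counts in aged and 23.27 and 25.71 counts in young MFP. The ages, separated for these genes in CPM, overlapped on this scale, as they did for Fbp2. Both aged samples were below both young ones on this scale for Pgam2, Eno3, Phka1 and Phkg1, and above them for Ppp1r3a. The log2 ratio of aged to young on this scale lay between -0.83 for Phkg1 and 0.60 for Ppp1r3a over the 8 muscle isoforms, with a median of -0.21, where their log2 fold changes in CPM had lain between 1.25 and 2.71. All 18 broad forms had a negative ratio on this scale, from -2.20 to -0.48 with a median of -1.63, and Ppp1r3c was the nearest to 0. The 4 liver isoforms with counts and the 5 other isoforms were also negative, with medians of -2.32 and -2.05. The divisor of a library is the same for every member, so this scale lowers all log2 fold changes by nearly the same amount. The values of the muscle class on this scale, and the negative signs outside it, therefore follow from the changes in CPM of members and markers. They are not a separate result. With the mean of the log2 marker counts in place of their sum, which gives more weight to Myh2, Myh7 and Mb of aged replicate 1, the muscle isoforms lay between -1.50 and -0.08. The part of skeletal muscle RNA in the higher levels of the muscle isoforms and of the glycogen genes was not tested.

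**Figure D4:**
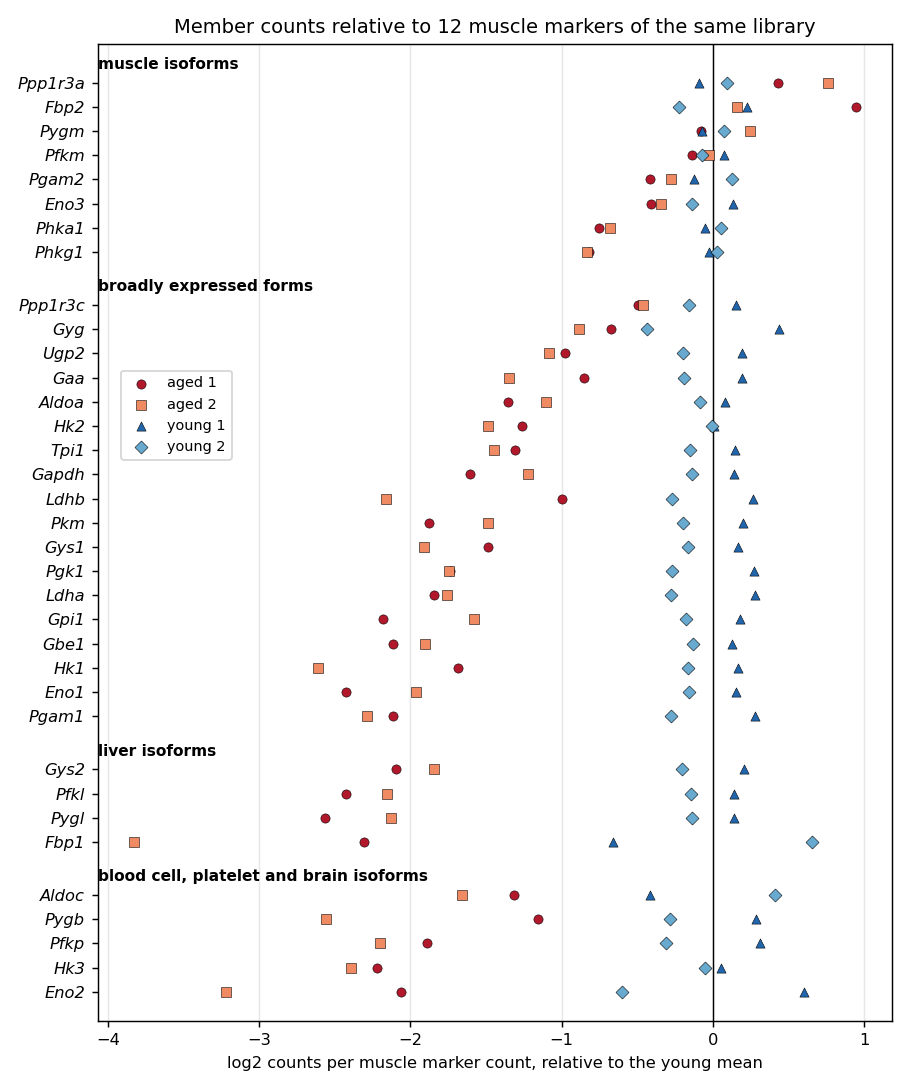
Counts of each member per count of 12 skeletal muscle markers in the same library, on a log2 scale relative to the mean of the young libraries (horizontal axis), grouped by isoform class, for the 4 libraries. Aged over young, the muscle isoforms lie on both sides of 0, with log2 ratios from -0.83 to 0.60. The other classes are all below 0, with the aged points to the left of the young points. The divisor of a library is the same for every member, so it moves all members alike.

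Other marker lists were examined for the same libraries. All 5 red cell genes were higher in both aged samples, summing to 212.3 and 157.2 CPM in aged and 72.72 and 81.5 CPM in young MFP, and 7 of 8 adipocyte markers were higher in both aged samples, with a median log2 fold change of 0.44. The part of red cells in the values of the members was not tested. Aged was above young without overlap for 3 of 7 myeloid, 2 of 7 mammary epithelial and 0 of 6 Schwann genes tested. The same held for 1 of 6 smooth muscle, 1 of 6 endothelial and 1 of 4 hepatocyte genes, and for 23.3% of all genes. The smooth muscle gene was Des, with a log2 fold change of 2.31, beside a median of 2.15 for the skeletal muscle markers.

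A list of 45 further genes of glucose and glycogen metabolism, which are not members, was compared in the same fit, and 44 of its symbols were in the table. Of the 38 tested, 19 had both aged samples above and 5 had both below the young samples, against 23.3% and 22.8% of all genes. The median log2 fold change was 0.39, and 0 were called by edgeR. At an unadjusted p under 0.05 from edgeR, 10 were higher and 1 lower (Adpgk, named after its value was seen), against 7.24% and 3.31% of all genes. DESeq2 called 7 higher and 0 lower, against 3.24% and 0.71% of all genes. Among the 7 were Stbd1, Slc16a3, Tigar, Epm2a, Pgm1 and Bpgm, the last 3 of which are named because of that call. Stbd1, which anchors glycogen to membranes, was at 8.609 and 14.55 CPM in aged and 3.196 and 5.285 CPM in young MFP, with a log2 fold change of 1.45. The ages did not overlap.

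Slc16a3, the lactate exporter of glycolytic fibres and cells, was at 18.04 and 31.39 CPM in aged and 9.466 and 9.743 CPM in young MFP, with a log2 fold change of 1.36. Tigar, a phosphatase of fructose bisphosphate, was at 29.26 and 53.77 CPM in aged and 16.98 and 16.61 CPM in young MFP, with 1.31. Both were separated by age. Pgm5, a phosphoglucomutase relative without that activity found in muscle, was at 22.65 and 21.57 CPM in aged and 4.428 and 13.46 CPM in young MFP, with 1.31, and DESeq2 did not call it (adjusted p = 0.268). Eno4, an enolase relative of sperm, had the largest log2 fold change of the list, 1.98, on 31 and 29 counts in aged and 11 and 3 counts in young MFP (adjusted p = 0.458 from edgeR and 0.367 from DESeq2).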

How the data were processed

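Total RNA of whole MFP, depleted of ribosomal RNA and made into directional libraries, was sequenced from 2 aged and 2 young samples. The authors deposited raw read counts per gene, whole numbers with no normalization, no filter and no pooling. The submitters' processing notes name featureCounts, R 3.6.1 and GRCm38. The aligner, the annotation and the strand setting are not given in the sources used here. Reads of genes that overlap on opposite strands may therefore be mixed. On the same strand, Pfkm shares 341 exonic bases with Gm26513 and Pkm shares 767 with Gm49759, whatever the strand setting. Samples were grouped by the age and replicate number in their titles.

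Counts were analysed with R 4.3.3 and edgeR 4.0.16: filterByExpr, TMM scaling, glmQLFit and glmQLFTest (legacy method) with age as the only term, and Benjamini-Hochberg adjustment over all 22485 genes tested. DESeq2 1.42.0 was the alternative, as in the study. CPM values use TMM-scaled library sizes. Shares and ratios to markers were computed per library in Python 3.11.15, with exact permutation tests from scipy 1.17.1. Gene coordinates and exon lengths are from GENCODE M21 and promoter windows from RefSeq, both on GRCm38. The code was tested on simulated data.

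The members and gene lists were chosen with earlier results of these data known. The rule for named genes took every member, with values per sample for the muscle isoforms and their family partners, the 6 genes of the further metabolic list with the largest absolute log2 fold change (1 of them is not reported here), and each marker list by its sum and counts. Alternatives were 3 other scalings, 2 other filters, a replicate block, DESeq2, the fit without the legacy method, shares in raw counts, another summary of the muscle markers and leaving out each library. The crossed block and DESeq2 without each library were chosen after seeing the data. Intervals and floors cover counting error only, since reads were counted without molecular identifiers. Replicates of an age differed by far more than sampling noise (chi-square per degree of freedom 265.7 in young and 297.8 in aged MFP).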

Additional observations from a re-analysis of the deposited data

How the results depend on the processing

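edgeR called 0 genes, 0 members and 0 genes of the further metabolic list under each of its scalings, filters, blocks and left-out libraries, with 2371 genes at an unadjusted p under 0.05 in the fit reported. DESeq2 called 869 genes, 12 members and 7 of the further list. Scaling by total counts only moved the median of all genes from -0.04 to -0.22. Relative to that median the class medians were 1.90 for muscle, 0.52 for broad, -0.14 for liver and 0.05 for the other isoforms, against 1.91, 0.53, -0.12 and 0.06 with TMM. That scaling turned the sign of Gbe1 (-0.082), Gys2 (-0.031) and Pfkp (-0.16), and upper quartile scaling that of Pfkp (-0.0056). The 8 muscle isoforms had both aged samples above both young under all 4 scalings, and the broad forms 10, 10, 9 and 8 of 18 under TMM, RLE, upper quartile and total counts. Both aged samples were below both young for 0 members under TMM and RLE, for 1 under upper quartile scaling (Eno2) and for 3 under total counts (Pgam1, Hk3 and Eno2). With each library left out, the median ranged from 1.45 to 2.21 for muscle, from 0.18 to 0.84 for broad, from -0.70 to 0.25 for liver and from -0.16 to -0.02 for the other isoforms. Single genes that changed sign ranged from -0.23 to 0.048 for Hk1, -0.38 to 0.10 for Pgam1, -0.70 to 0.42 for Eno1, -0.14 to 0.90 for Pkm, -0.11 to 0.63 for Ldha, -0.45 to 0.81 for Gpi1, -0.0083 to 0.64 for Pgk1, -0.39 to 0.47 for Gbe1, -0.70 to 0.22 for Pfkl, -0.83 to 0.25 for Pygl, -0.36 to 0.54 for Gys2, -0.16 to 0.18 for Pfkp, -0.066 to 1.25 for Aldoc and -0.17 to 0.58 for Pygb. In raw counts the share differences were 34.9 points for Pfkm, 28.5 for Pgam2 and 25.6 for Eno3. With the mean of the log2 marker counts, the log2 ratios to muscle markers were -0.76 for Pfkm, -1.02 for Pgam2, -1.05 for Eno3, -0.12 for Fbp2, -0.59 for Pygm, -1.39 for Phka1, -1.50 for Phkg1 and -0.075 for Ppp1r3a. The cause of these shifts was not tested.

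Same-numbered libraries of the 2 ages did not vary alike around the mean of their age (correlation -0.48 across genes, which are not independent replicates). In a fit with a replicate block, 0 genes and 0 members were called, and 1346 genes had an unadjusted p under 0.05, 14 of them members. A crossed block, added after seeing the data, called 0 genes and gave 2494 genes, 12 of them members. Depth limits only Pklr and Fbp1, which had at most 25 counts in a library.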

Other observations

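Some genes of the further list were picked and grouped here by role after their values were seen, and these few showed no common direction. The 38 tested genes of that list had 25 positive and 13 negative log2 fold changes, with a median of 0.39. Of the glucose transporters, Slc2a4, the insulin-responsive one of fat and muscle, was at 255.6 and 455.1 CPM in aged and 244.7 and 299.3 CPM in young MFP and overlapped between the ages. Slc2a1, the widespread one, was at 32.82 and 32.96 CPM in aged and 36.27 and 41.82 CPM in young MFP, with both aged samples below both young samples. Gpd1, which makes glycerol phosphate for triglyceride and is abundant in adipocytes, was at 1100 and 1544 CPM in aged and 1374 and 1660 CPM in young MFP. Pcx, which carboxylates pyruvate, was at 1195 and 2520 CPM in aged and 1828 and 1979 CPM in young MFP. Both overlapped, with aged replicate 1 the lowest library. Pck1, which serves glyceroneogenesis in fat, had the reverse order of the aged samples, with 990.4 and 288.9 CPM in aged and 670.6 and 625.9 CPM in young MFP.

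Of the further glycogen genes, Epm2a, the glycogen phosphatase laforin, was at 23.98 and 28.3 CPM in aged and 11.49 and 11.82 CPM in young MFP (adjusted p = 0.36 from edgeR and 6.78e-05 from DESeq2). Phkb, the beta subunit of phosphorylase kinase shared by muscle and liver, was at 148.5 and 177.1 CPM in aged and 95.78 and 147 CPM in young MFP. The liver subunits Phka2 and Phkg2 had log2 fold changes of 0.03 and -0.21, beside 1.36 and 1.25 for the muscle subunits Phka1 and Phkg1. The difference between these subunits was not tested.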
